A study of Mus musculus with 6 samples.

Results

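The interferon-stimulated antiviral genes are 35 genes that cells switch on when they sense interferon, and they were taken by gene name from the 23390 genes of the deposited count table. All 35 had 1 row each and all 35 passed the filter on low counts. They comprise RNA sensors, STAT and IRF transcription factors and antiviral effectors; interferon-inducible GTPases and MHC genes were left out. RNA was measured in 3 libraries from Vil.Cre Maf.flox mice and 3 from Maf.flox mice, all C57BL/6, with no age, treatment or infection given in the labels. Each library held living cells of the small intestine sorted as CD45- EpCAM+, that is, without the leukocyte marker and with the epithelial marker. Vil.Cre Maf.flox mice carry floxed Maf and Cre under the villin promoter, which is active throughout the intestinal epithelium, so Maf is removed there and not in other cells of the gut. Maf.flox mice carry the floxed Maf without Cre, and no group carried Cre without floxed Maf. Maf encodes c-Maf, a DNA-binding factor of the leucine zipper class.

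Interferons are secreted proteins that tell neighbouring cells of a virus. Type I and type III interferons bind receptors whose kinases phosphorylate STAT proteins, and STAT2 joins IRF9 in a complex that binds the interferon-stimulated response element in target promoters. Interferon gamma acts mainly through the gamma-activated site and raises IRF1. In the gut epithelium, type III interferon is known as the main antiviral signal, and a basal level of these genes is kept up without infection.

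Maf had 16, 1 and 1 counts in Vil.Cre Maf.flox, against 9398, 5615 and 3893 counts in Maf.flox, a log2 fold change of -9.89 (SE 0.704, adjusted p = 0.0133, edgeR quasi-likelihood). Total counts lay between 17464355 and 21631476 for Vil.Cre Maf.flox and between 19842751 and 24802525 for Maf.flox. Xist and Y-linked counts marked as male the first 2 Vil.Cre Maf.flox replicates and Maf.flox replicate 1, and the other 3 libraries as female. Maf.flox replicate 3 stood apart: its counts differed from those of Maf.flox replicates 1 and 2 with a chi-square per gene of 133 and 61.7, against 35.3 to 38.4 within the other pairs of a genotype. Each genotype thus holds at least 2 mice, while the labels do not say whether libraries of the same sex stem from separate mice, so part of the spread behind each p-value may be technical. Over 10 epithelial markers the summed level was 16224 to 21278 CPM in Vil.Cre Maf.flox and 17120.2 to 20242 CPM in Maf.flox, where CPM is a gene's count scaled by library size with TMM factors. None of the 10 was called, 4 were above 0 and the median log2 fold change was -0.14. At an unadjusted p under 0.05 in edgeR (quasi-likelihood), 2 were lower (Alpi, log2 fold change -1.0, and Fabp1, -1.46), against 9.25% of all genes tested. Fabp1, Krt18 (-0.27) and Cdx2 (-0.18) lay below the controls without overlap, against 10.5% of all genes tested.

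The promoters of these genes were searched for the elements that interferon signalling acts on. RefSeq promoter windows of build GRCm38.p6, each reaching from 250 bases before to 50 bases after a transcription start, were found for 28 of the 35 genes. The core of the interferon-stimulated response element was searched on either strand as GAAA, any 2 bases and GAAA again. It was found in the windows of 14 of the 28 genes, or 50%, against 3.99% of all 27025 genes with a window. The core of the gamma-activated site, TTCNNNGAA, which reads the same on both strands, was found for 7 of the 28 genes, or 25%, against 9.55% of all genes. Matches of the motifs may overlap each other, and a match describes letters, not binding. The 250 bases before the start are printed here, 5′ to 3′ on the gene's own strand, for the 2 genes that rose in Vil.Cre Maf.flox (Ifit1bl1 and Bst2), for 2 textbook interferon targets that did not pass the test (Isg15 and Ifit1) and for Irf1. Capitals mark the response element core or its reverse complement, except in Irf1, which has no such match and where they mark TTCNNNGAA.
Ifit1bl1, chr19:34601969-34602218, minus strand: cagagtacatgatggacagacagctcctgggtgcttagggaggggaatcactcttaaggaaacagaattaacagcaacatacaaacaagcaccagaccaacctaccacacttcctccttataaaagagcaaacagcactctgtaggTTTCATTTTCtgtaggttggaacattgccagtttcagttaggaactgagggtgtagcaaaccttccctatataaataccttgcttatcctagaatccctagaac
Bst2, chr8:71537473-71537722, minus strand: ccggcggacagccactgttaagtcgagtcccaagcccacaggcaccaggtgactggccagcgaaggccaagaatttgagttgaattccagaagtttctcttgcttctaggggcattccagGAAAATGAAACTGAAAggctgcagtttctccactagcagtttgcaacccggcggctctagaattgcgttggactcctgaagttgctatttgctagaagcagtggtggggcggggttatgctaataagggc
Isg15, chr4:156200819-156201068, minus strand: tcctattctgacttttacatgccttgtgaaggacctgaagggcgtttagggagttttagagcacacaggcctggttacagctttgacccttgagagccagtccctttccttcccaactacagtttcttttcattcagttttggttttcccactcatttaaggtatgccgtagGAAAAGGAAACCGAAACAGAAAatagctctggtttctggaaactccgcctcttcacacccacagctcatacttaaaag
Ifit1, chr19:34640639-34640888, plus strand: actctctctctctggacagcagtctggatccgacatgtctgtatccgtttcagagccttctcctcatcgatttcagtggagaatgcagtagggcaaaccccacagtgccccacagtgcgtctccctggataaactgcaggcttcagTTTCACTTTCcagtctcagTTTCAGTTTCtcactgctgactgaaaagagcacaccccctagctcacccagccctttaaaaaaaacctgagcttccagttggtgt
Irf1, chr11:53769764-53770013, plus strand: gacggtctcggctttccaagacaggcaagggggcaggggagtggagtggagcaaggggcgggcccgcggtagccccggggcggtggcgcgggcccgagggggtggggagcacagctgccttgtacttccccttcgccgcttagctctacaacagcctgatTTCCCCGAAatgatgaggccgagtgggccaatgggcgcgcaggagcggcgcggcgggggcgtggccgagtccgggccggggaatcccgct
Isg15 held 3 overlapping matches in a run, the first starting 78 bases before the start site, and Bst2 held 2 overlapping matches starting 130 and 124 bases before it, preceded by an overlapping TTCCAGGAA. Ifit1 held 2 separate matches. Ifit1bl1 held 1 match in this window and 1 in a second window at another start site.

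**Figure D1:**
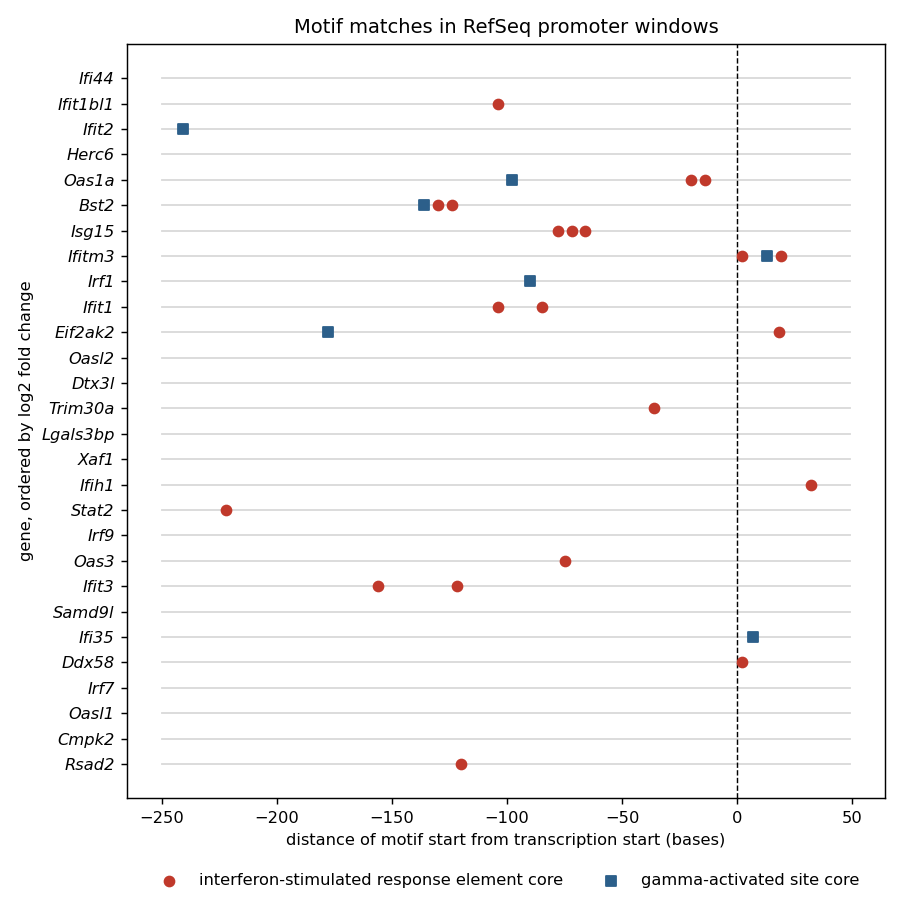
Each row is 1 of the 28 genes with a RefSeq promoter window, ordered from the lowest log2 fold change at the bottom to the highest at the top, and the x axis is the distance in bases of a motif's first base from the transcription start (dashed line). Round points are response element cores and square points are gamma-activated site cores, drawn for the window nearest to the start in the files; the 14 genes with a response element core are spread over the whole order.

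Of the 35 genes, Ifit1bl1 and Bst2 rose in Vil.Cre Maf.flox and 0 fell, in edgeR (quasi-likelihood) at an adjusted p of 0.05 over 13740 genes. Over all genes tested, 0.189% were called higher and 0.357% lower. An unadjusted p under 0.05 was found for 10 members on the higher side and 2 on the lower, against 7.11% and 9.25% of all genes; by DESeq2, 6 members were called higher, against 2.06% of all genes, and 1 lower, against 3.47% of all genes. The median log2 fold change was 0.19 over the members and -0.01 over all genes tested, with 22 members above 0 and 13 below, against 48.4% of all genes above 0. The members' median was -0.02 without Maf.flox replicate 3 and 0.06 without Vil.Cre Maf.flox replicate 3, and its SD between libraries of a genotype was 0.26. Single values ran from -0.95 for Ifi27 to 2.25 for Ifi44. The members did not all lie on one side of 0.

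**Figure D2:**
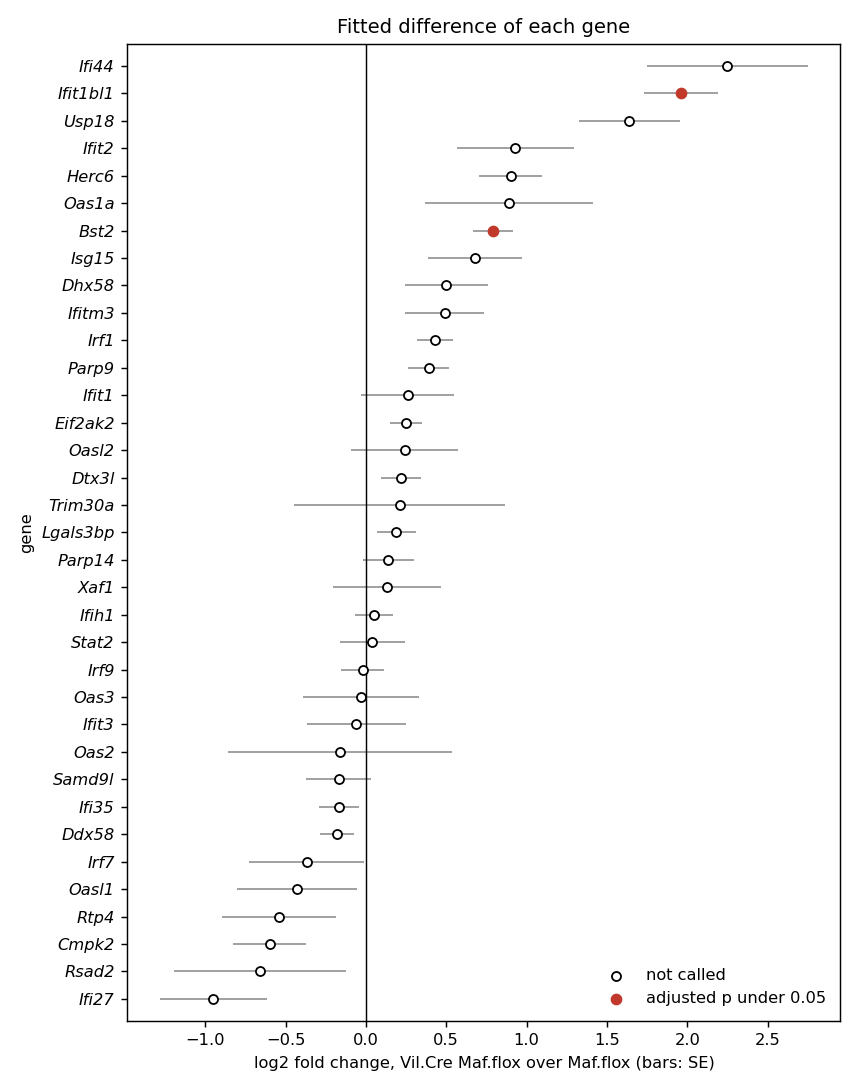
Points give the log2 fold change of each of the 35 genes, Vil.Cre Maf.flox over Maf.flox, from the fit over all genes, and bars give its SE. Filled points are the 2 genes with an adjusted p under 0.05, Ifit1bl1 at 1.96 and Bst2 at 0.79; open points were not called, and Ifi44 at 2.25 is the highest of them.

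In 8 members every Vil.Cre Maf.flox library was above every Maf.flox library, namely Ifit1bl1, Bst2, Usp18, Herc6, Ifi44, Irf1, Parp9 and Eif2ak2. These are 22.9% of the members, against 10.1% of all genes tested. In no member was every Vil.Cre Maf.flox library below every Maf.flox library, against 10.5% of all genes tested. That count was 8 without Maf.flox replicate 3 and 5 without Vil.Cre Maf.flox replicate 3. Leaving out a library can only keep or raise such a count, and no share over all genes was taken for the smaller sets. Of the 8 genes above the controls in all libraries, 6 have a promoter window. Of these 6, 3 hold the response element core, the same share of 50% as the 11 of 22 among members whose groups overlapped.

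**Figure D3:**
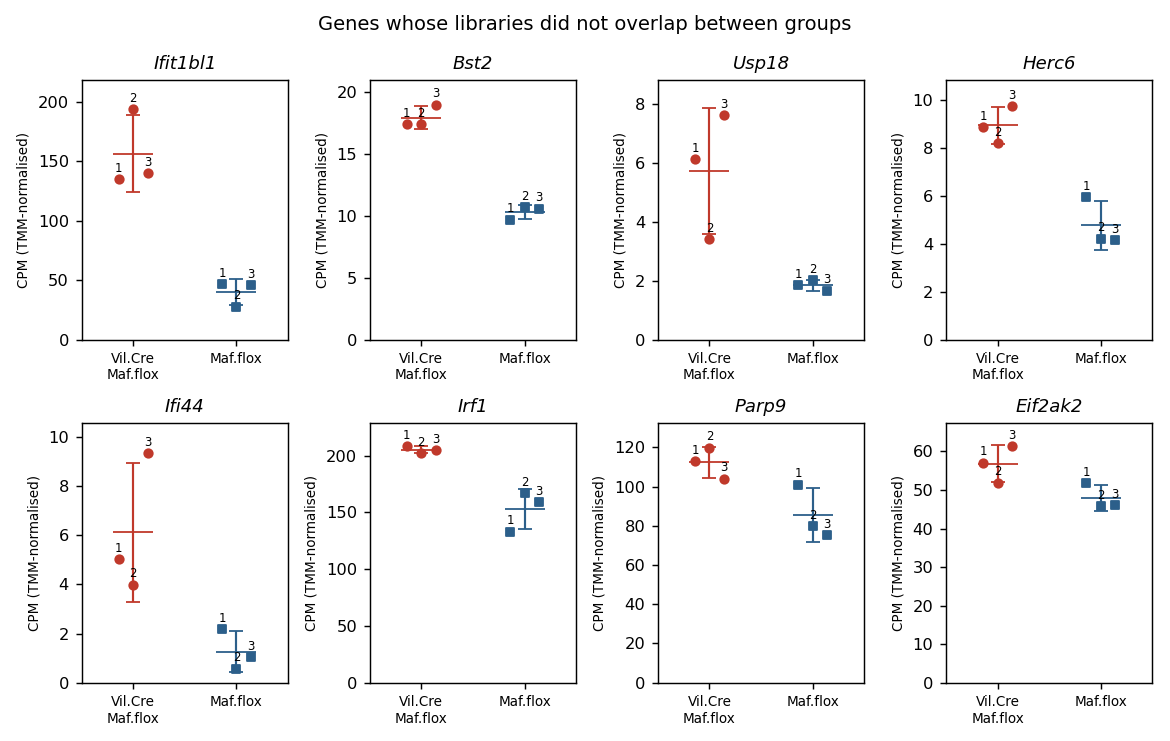
Each panel plots TMM-normalised CPM (y axis, from 0) for 1 of the 8 genes whose groups did not overlap, with circles for Vil.Cre Maf.flox, squares for Maf.flox and the replicate number above each point; horizontal lines are means and bars are SD (n = 3 each). The gap is wide in Ifit1bl1, with 135 to 194 CPM above 27.7 to 46.9 CPM, and narrow in Eif2ak2, with 51.9 to 61.4 CPM above 45.8 to 51.7 CPM.

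The RNA sensors did not pass the test. Ddx58, which encodes RIG-I, Ifih1, which encodes MDA5, and Dhx58, which encodes their regulator LGP2, recognise viral RNA in the cytosol. Ddx58 had 41.5, 42.3 and 45.3 CPM in Vil.Cre Maf.flox, against 52.7, 50.2 and 43.0 CPM in Maf.flox. Ifih1 had 63.9, 69.8 and 65.5 CPM in Vil.Cre Maf.flox, against 72.5, 65.1 and 54.8 CPM in Maf.flox. Dhx58 had 4.72, 5.93 and 9.20 CPM in Vil.Cre Maf.flox, against 5.17, 4.48 and 4.41 CPM in Maf.flox. The groups overlapped in all 3 sensors, and their log2 fold changes were -0.18, 0.05 and 0.50. Dhx58 overlaps Dhx58os on the other strand, and its counts can include reads of that gene, since the sources used here do not give how counting treated strand.

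Among the transcription factors, Irf1 was set apart from Irf7, Irf9 and Stat2. Irf1, which binds response elements and is a direct target of interferon gamma, had 208, 202 and 205 CPM in Vil.Cre Maf.flox, against 133, 167 and 159 CPM in Maf.flox. All 3 Vil.Cre Maf.flox libraries lay within a narrow band above the controls, but the log2 fold change of 0.43 (SE 0.112) was not called (adjusted p = 0.123) in edgeR (quasi-likelihood); DESeq2 called it (adjusted p = 0.0141). Stat2 and Irf9, partners in the complex formed after type I and type III interferon, had log2 fold changes of 0.04 and -0.02. Stat2 had 38.2, 35.8 and 57.3 CPM in Vil.Cre Maf.flox, against 47.6, 46.3 and 34.2 CPM in Maf.flox, so the spread within each group was wider than the difference between their means. Irf9 had 33.0, 30.3 and 42.0 CPM in Vil.Cre Maf.flox, against 37.5, 35.2 and 33.8 CPM in Maf.flox. Irf7, the factor that amplifies type I interferon production, had 57.4, 63.2 and 76.6 CPM in Vil.Cre Maf.flox, against 119.5, 92.3 and 42.3 CPM in Maf.flox. Its Maf.flox libraries lay on both sides of the Vil.Cre Maf.flox libraries (log2 fold change -0.37, SE 0.355, adjusted p = 0.677 in edgeR (quasi-likelihood)). Without Maf.flox replicate 3 the value was -0.69 (adjusted p = 0.0459), and without Maf.flox replicate 1 it was -0.02 (adjusted p = 0.987), by the same edgeR test. Over all genes, 577 were called lower without Maf.flox replicate 3, against 49 in the main test.

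The ISG15 system was higher in mean in all 3 members, with none called. Isg15 encodes a ubiquitin-like protein that is joined to other proteins, Herc6 encodes the main enzyme that joins it in mouse, and Usp18 encodes the protease that removes it and also dampens the type I interferon receptor. Usp18 had 6.14, 3.41 and 7.62 CPM in Vil.Cre Maf.flox, against 1.85, 2.03 and 1.66 CPM in Maf.flox. Herc6 had 8.88, 8.22 and 9.76 CPM in Vil.Cre Maf.flox, against 5.97, 4.22 and 4.17 CPM in Maf.flox. Neither gene's libraries overlapped between groups, with fitted values 3.11-fold and 1.87-fold of the control (log2 fold changes 1.64, SE 0.312, and 0.90, SE 0.198). Their adjusted p was 0.0657 and 0.0854 in edgeR (quasi-likelihood). Both were called by DESeq2 (adjusted p = 0.000188 and 0.00423) and with no filter. Isg15 had 15.7, 13.3 and 20.5 CPM in Vil.Cre Maf.flox, against 14.1, 10.5 and 6.26 CPM in Maf.flox, and these overlapped (log2 fold change 0.68, SE 0.292, adjusted p = 0.302 by the same edgeR test). Of the 50-base stretches of Herc6 transcripts, 12% also stand in Gm45193 on the same strand, and Usp18 overlaps Gm44148 on the other strand.

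The Ifit genes, whose proteins bind viral RNA that lacks the marks of host messages, differed from each other although they lie within 99.3 kb on chromosome 19. Ifit1bl1, an Ifit1-like gene (ENSMUSG00000079339, GRCm38 chromosome 19, 34592888 to 34601968, minus strand), had 135, 194 and 140.2 CPM in Vil.Cre Maf.flox, against 46.9, 27.7 and 45.6 CPM in Maf.flox. It averaged 156 ± 32.4 CPM in Vil.Cre Maf.flox and 40.1 ± 10.7 CPM in Maf.flox (SD, n = 3 each). The groups were far apart and the value was 3.89-fold of the control (log2 fold change 1.96, SE 0.231, adjusted p = 0.0236 in edgeR (quasi-likelihood)). The call was lost without Vil.Cre Maf.flox replicate 1 or 3 (adjusted p = 0.0793 and 0.0707), with a term for sex (0.0594) and with a replicate block (0.0745), while the log2 fold change stayed between 1.76 and 2.10. Ifit1, its neighbour, had 14.4, 14.3 and 16.8 CPM in Vil.Cre Maf.flox, against 17.6, 13.2 and 7.11 CPM in Maf.flox, and the groups overlapped (log2 fold change 0.26). Ifit2 had 3.60, 3.05 and 7.66 CPM in Vil.Cre Maf.flox, against 2.23, 2.24 and 3.08 CPM in Maf.flox, with Vil.Cre Maf.flox replicate 3 far above the rest (log2 fold change 0.93, SE 0.366, not called). Ifit3 was at 2.74, 3.35 and 5.43 CPM in Vil.Cre Maf.flox, against 5.05, 4.01 and 2.99 CPM in Maf.flox. Reads shared among copies are a limit for Ifit3, where 51.2% of 50-base stretches of its transcripts also stand in Ifit3b, and less so for Ifit1bl1 and Ifit1, with 6.45% and 7.13%, nearly all of it in Ifit1bl2.

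The oligoadenylate synthetases, which make the messenger that activates the RNA-cutting enzyme RNase L, and the kinase PKR were not called. Eif2ak2, which encodes PKR, a kinase that stops translation on double-stranded RNA, had 57.1, 51.9 and 61.4 CPM in Vil.Cre Maf.flox, against 51.7, 45.8 and 46.1 CPM in Maf.flox. These libraries did not overlap, but the lowest of Vil.Cre Maf.flox and the highest of Maf.flox nearly touched (log2 fold change 0.25, SE 0.102). Oasl1, which in mouse restrains the translation of Irf7, had 17.8, 15.3 and 17.1 CPM in Vil.Cre Maf.flox, against 31.4, 26.0 and 10 CPM in Maf.flox. As for Irf7, its Maf.flox libraries straddled the Vil.Cre Maf.flox libraries (log2 fold change -0.43, adjusted p = 0.636 in edgeR (quasi-likelihood), or -0.78 and 0.0184 without Maf.flox replicate 3). Without Maf.flox replicate 1 the log2 fold change of Oasl1 was -0.09 (adjusted p = 0.951 by the same edgeR test). Its neighbour Oasl2 had 33.3, 28.4 and 54.3 CPM in Vil.Cre Maf.flox, against 41.2, 37.0 and 20.1 CPM in Maf.flox. Oas3 had 13.3, 10.3 and 17.9 CPM in Vil.Cre Maf.flox, against 20.8, 14.2 and 7.54 CPM in Maf.flox. Oas1a had 7.15, 14.4 and 24.5 CPM in Vil.Cre Maf.flox, against 7.53, 12.9 and 4.55 CPM in Maf.flox. The spread within a group exceeded the difference between the means in Oasl2 and Oas3, and 57.6% of the 50-base stretches of Oas1a also stand in Oas1g. Oas2 was at 0.235 to 2.35 CPM in Vil.Cre Maf.flox and 1.09 to 1.41 CPM in Maf.flox, with 55 counts in Vil.Cre Maf.flox replicate 3 and 10 and 4 counts in replicates 1 and 2.

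Cmpk2 and Rsad2 lie within 37.1 kb of chromosome 12 on opposite strands and both had a value below 0. Rsad2 encodes viperin, which makes a nucleotide that ends viral RNA chains, and Cmpk2 encodes a nucleotide kinase that can supply its substrate. Cmpk2 had 33.8, 49.1 and 40.6 CPM in Vil.Cre Maf.flox, against 75.7, 68.9 and 42.4 CPM in Maf.flox. Rsad2 had 1.01, 1.17 and 2.05 CPM in Vil.Cre Maf.flox, against 3.15, 2.92 and 0.711 CPM in Maf.flox. In both genes Maf.flox replicate 3 fell among or below the Vil.Cre Maf.flox libraries, and the log2 fold changes of -0.60 (SE 0.228) and -0.66 (SE 0.536) were not called. Without Maf.flox replicate 3, Cmpk2 was at -0.81 with an adjusted p of 0.0241 in edgeR (quasi-likelihood). Without Maf.flox replicate 1 it was at -0.42 (adjusted p = 0.494 by the same edgeR test).

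Of the membrane proteins, Bst2 rose. Bst2 encodes tetherin, which holds budding virus at the cell surface (ENSMUSG00000046718, GRCm38 chromosome 8, 71534255 to 71537456, minus strand), and it had 17.4, 17.4 and 19.0 CPM in Vil.Cre Maf.flox, against 9.71, 10.7 and 10.6 CPM in Maf.flox. Its means were 17.9 ± 0.953 CPM in Vil.Cre Maf.flox and 10.4 ± 0.557 CPM in Maf.flox (SD, n = 3 each), and replicates of a genotype differed by at most 1.10-fold. The value was 1.73-fold of the control (log2 fold change 0.79, SE 0.126, adjusted p = 0.0412 in edgeR (quasi-likelihood)). The call was lost with limma-voom (adjusted p = 0.0527) and without any library other than Maf.flox replicate 3 (adjusted p = 0.0789 to 0.192), at log2 fold changes between 0.75 and 0.84 in every fit run. Bst2 is also a surface marker of plasmacytoid dendritic cells in mouse; Siglech, the defining marker of those cells, had 2, 1 and 0 counts in Vil.Cre Maf.flox and 0 in each Maf.flox library. Ifitm3, which blocks the fusion of entering viruses, had 39.3, 22.9 and 38.2 CPM in Vil.Cre Maf.flox, against 19.6, 21.0 and 30.9 CPM in Maf.flox. Rtp4, of the receptor transporter family, had 3.14, 3.88 and 7.57 CPM in Vil.Cre Maf.flox, against 9.17, 7.08 and 5.12 CPM in Maf.flox. Both overlapped between groups and were not called (log2 fold changes 0.49 and -0.54).

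Among the remaining effectors, Ifi44 and Ifi27 lay at the opposite ends of the family. Ifi44 had 5.02, 3.99 and 9.33 CPM in Vil.Cre Maf.flox, against 2.19, 0.573 and 1.04 CPM in Maf.flox, which did not overlap. The log2 difference was 2.25 (SE 0.502, adjusted p = 0.093) in edgeR (quasi-likelihood), and it was called by DESeq2 (adjusted p = 0.000173). It rests on 52, 11 and 22 counts in Maf.flox and ran from 1.81 to 2.92 over the 14 alternative fits. Ifi27, which encodes a small interferon-induced membrane protein, had 9.89, 10.7 and 17.6 CPM in Vil.Cre Maf.flox, against 32.2, 27.5 and 14.6 CPM in Maf.flox. Only replicate 3 of each genotype overlapped, and the log2 fold change was -0.95 (SE 0.333, adjusted p = 0.223 by the same edgeR test). In that test it was -1.22 without Maf.flox replicate 3 (adjusted p = 0.0307) and -0.70 without Maf.flox replicate 1 (adjusted p = 0.459). DESeq2 called Ifi27 lower (adjusted p = 0.0427). Ifi35, Xaf1, Trim30a, Samd9l and Lgals3bp had values between -0.17 and 0.21 with overlapping groups. Ifi35 had 41.4, 45.2 and 43.7 CPM in Vil.Cre Maf.flox, against 56.5, 49.3 and 41.0 CPM in Maf.flox. Samd9l, a restriction factor against poxviruses, had 32.9, 40.6 and 41.2 CPM in Vil.Cre Maf.flox, against 53.8, 44.9 and 30.4 CPM in Maf.flox. Both had Maf.flox replicate 3 below all 3 Vil.Cre Maf.flox libraries. Xaf1 had 4.06, 3.23 and 7.87 CPM in Vil.Cre Maf.flox, against 5.68, 3.96 and 4.27 CPM in Maf.flox. Trim30a had 0.507, 0.822 and 3.00 CPM in Vil.Cre Maf.flox, against 1.89, 1.15 and 0.759 CPM in Maf.flox, a difference set by Vil.Cre Maf.flox replicate 3. Lgals3bp, a secreted glycoprotein that binds galectins, had the highest level of the family per gene length, with a mean of 108 FPKM in Vil.Cre Maf.flox and 94.2 FPKM in Maf.flox. Its CPM values were 331, 266 and 325 in Vil.Cre Maf.flox, against 285, 265 and 257 in Maf.flox. The lowest mean in Vil.Cre Maf.flox was that of Oas2, at 0.233 FPKM against 0.267 FPKM in Maf.flox, and the lowest in Maf.flox was that of Ifi44, at 1.00 FPKM in Vil.Cre Maf.flox against 0.207 FPKM in Maf.flox. On this scale per length, Ifit1bl1 averaged 68.8 FPKM in Vil.Cre Maf.flox and 17.6 FPKM in Maf.flox, and Irf1 averaged 51.7 FPKM in Vil.Cre Maf.flox and 38.2 FPKM in Maf.flox.

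Parp9, Dtx3l and Parp14 lie within 139.7 kb of chromosome 16, and Parp9 pairs with the ubiquitin ligase Dtx3l in antiviral signalling while Parp14 transfers ADP-ribose. Parp9 had 113, 119.8 and 104 CPM in Vil.Cre Maf.flox, against 101, 79.9 and 75.4 CPM in Maf.flox. Dtx3l had 109, 122 and 105 CPM in Vil.Cre Maf.flox, against 111, 92.5 and 84.4 CPM in Maf.flox. Parp9 did not overlap between groups and Dtx3l did, with log2 fold changes of 0.39 (SE 0.129, adjusted p = 0.187 in edgeR (quasi-likelihood)) and 0.22. These 2 genes overlap on opposite strands, and 7.71% of the 50-base stretches of Parp9 also stand in Dtx3l on the other strand. Parp14 had 127, 115 and 131 CPM in Vil.Cre Maf.flox, against 137, 114 and 85.9 CPM in Maf.flox, which overlapped (log2 fold change 0.14).

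**Figure D4:**
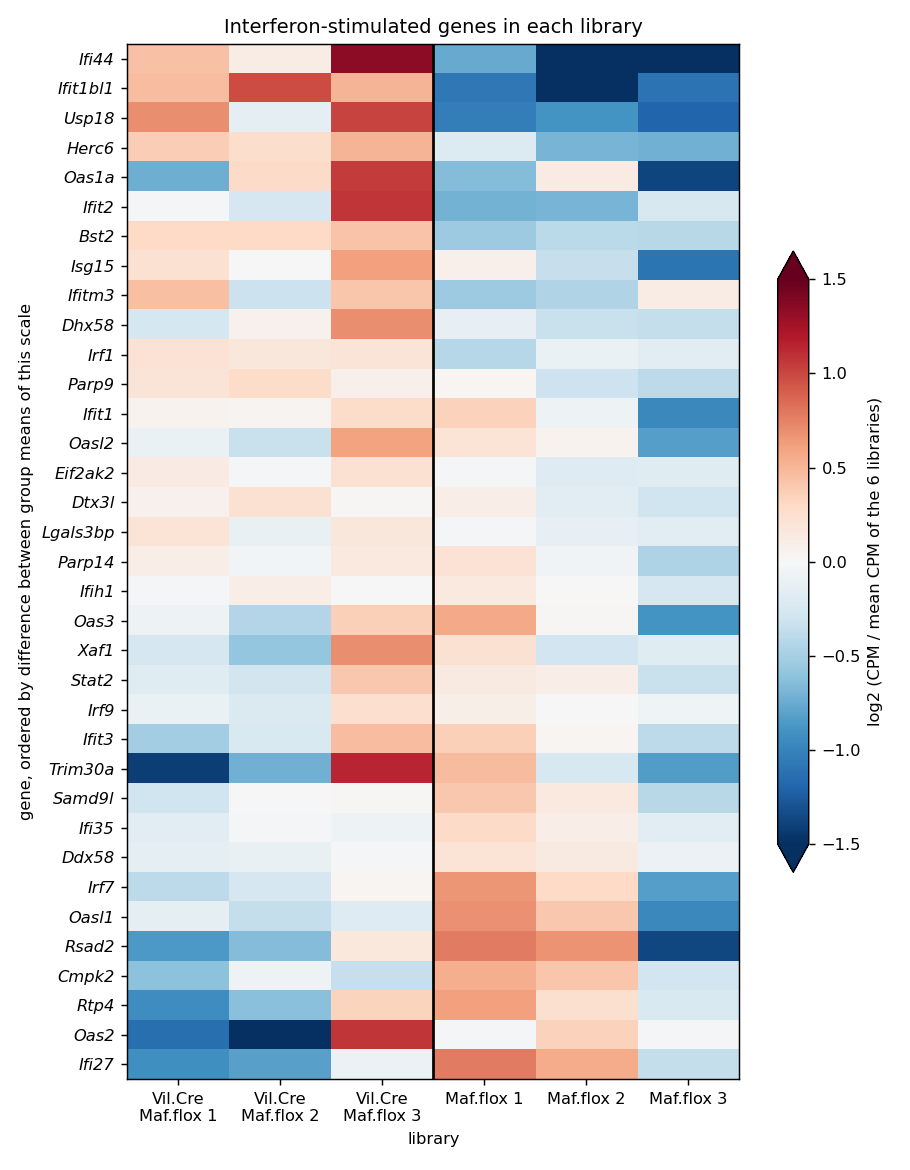
Colours give log2 of each library's CPM over the mean CPM of the 6 libraries, clipped at -1.5 and 1.5, for the 35 genes (rows, ordered by the difference between group means) in 3 Vil.Cre Maf.flox libraries (left) and 3 Maf.flox libraries (right). Vil.Cre Maf.flox replicate 3 is the highest of its group in 25 rows, Maf.flox replicate 1 in 28, and Maf.flox replicate 3 is the lowest of its group in 27 of the 35.

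In the other 27 members the libraries of the genotypes overlapped, and the same libraries were often high or low. Maf.flox replicate 1 had the highest level of its group in 28 of the 35 genes and Maf.flox replicate 3 the lowest in 27, against 33.9% and 38.4% of all genes tested, and replicate 2 lay between them in 24, against 23.8% of all genes. Vil.Cre Maf.flox replicate 3 had the highest level of its group in 25, against 34.3% of all genes. Vil.Cre Maf.flox replicate 3 and Maf.flox replicate 1 were both the highest of their groups in 20 genes, against 6.06% of all genes. These counts were taken after the pattern had been seen and carry no test. Over the 27 members whose groups overlapped, the median log2 level relative to the mean of the 6 libraries was -0.16, -0.23 and 0.27 for replicates 1, 2 and 3 of Vil.Cre Maf.flox, against 0.21, 0.03 and -0.36 for those of Maf.flox. Over all genes tested this median lay between -0.02 and 0 in every library. Over the 8 members whose groups did not overlap, it was 0.33, 0.22 and 0.47 in Vil.Cre Maf.flox, against -0.49, -0.55 and -0.57 in Maf.flox, a separation that the choice of these 8 fixes.

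**Figure D5:**
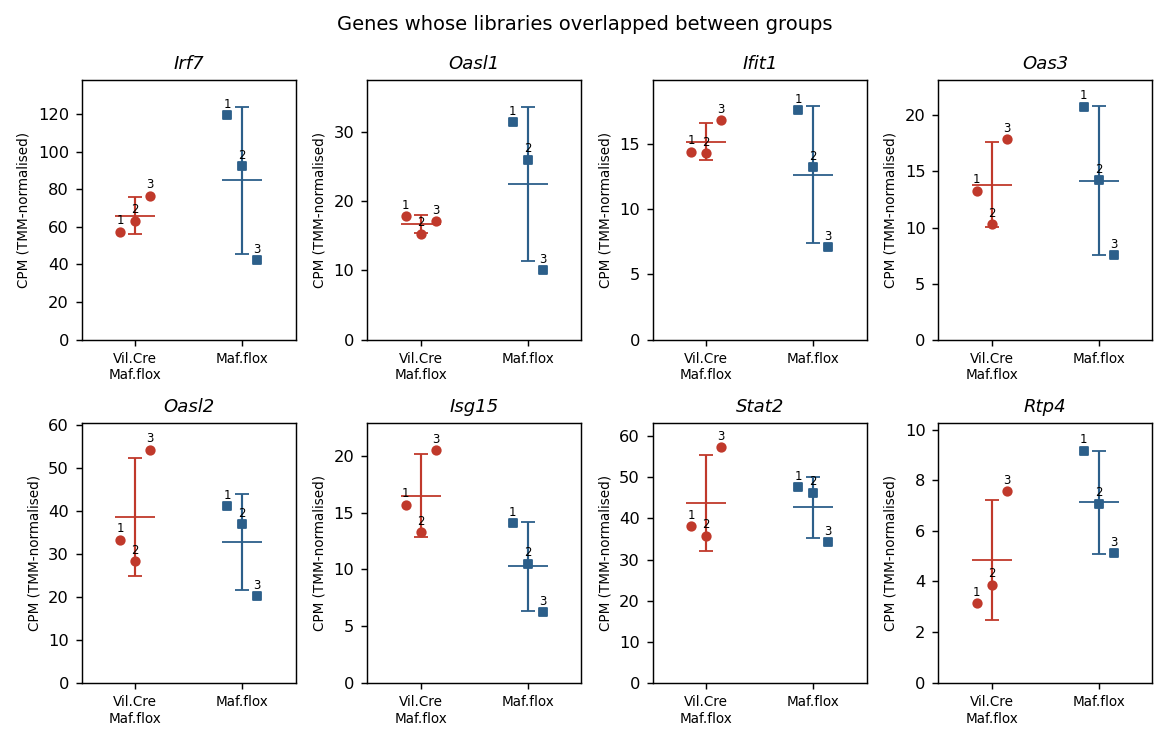
Each panel plots TMM-normalised CPM (y axis, from 0) for 8 genes whose groups overlapped, chosen after their values were seen, with circles for Vil.Cre Maf.flox, squares for Maf.flox, replicate numbers above the points, and lines and bars for mean and SD (n = 3 each). In all 8 panels Maf.flox replicate 1 is the highest and Maf.flox replicate 3 the lowest of their group, as in Irf7 at 119.5 and 42.3 CPM.

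The enterocyte marker Alpi, an alkaline phosphatase of mature villus cells, had the same ranking among the controls, at 207, 277 and 175 CPM in Vil.Cre Maf.flox, against 576, 495 and 243 CPM in Maf.flox. Alpi is 1 of the 10 epithelial markers, and the rankings of the others are not given. Maf itself had this ranking in Maf.flox, at 395, 292 and 185 CPM, as did 23.8% of all genes tested. The part of Alpi in the pattern was not tested. In Vil.Cre Maf.flox, Alpi was lowest in replicate 3, the library in which most interferon-stimulated genes were highest. The highest library of Maf.flox for these genes was its male, while that of Vil.Cre Maf.flox was its female. The genotype difference was therefore also fitted within each sex, a choice made after the data were seen. The median over members was 0.51 in females, where Vil.Cre Maf.flox has 1 library, and -0.25 in males, where Maf.flox has 1 library, and 15 members lay above 0 in females and below 0 in males. No count over all genes stands beside these 15 members. The difference between the sexes grows where Vil.Cre Maf.flox replicate 3 and Maf.flox replicate 1 are the highest of their groups. It therefore restates the pattern for which the fit was chosen and gives no separate support. Sex and the deviation of a single library cannot be told apart here. Bst2 and Ifit1bl1 had nearly equal values in both, at 0.83 and 1.93 in females and 0.84 and 1.81 in males. They were picked by the test on these same 6 libraries, which favours a small spread within a genotype. The likeness of their values between the sexes therefore gives no separate support either.

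Around these genes, no gene in the upstream parts of the pathway was called. The shares called were 0.189% higher and 0.357% lower over all genes tested, so sets this small would seldom hold a call. All 9 receptor chains and receptor kinases (for type I, type II and type III interferon) were below 0 on the log2 scale (median -0.21), where 48.4% of all genes tested were above 0. None of the 9 was called or at an unadjusted p under 0.05 in edgeR (quasi-likelihood). Those with the smallest p were Ifngr1 at -0.26, Ifngr2 at -0.25 and Il10rb at -0.24. Close to 0 were Ifnar1 (-0.06) and Ifnar2 (-0.08), the type I receptor chains, and the kinases Jak1 (-0.01) and Tyk2 (-0.03). Of 11 interferons looked for by name, only Ifnz was among the genes of the deposited counts. It did not pass the filter on low counts and was not tested. Its level was 0.0521 CPM in Maf.flox replicate 2 and 0 in the other libraries. Of 15 genes of nucleic acid sensing and interferon induction tested, none was called and the median was 0.01. At an unadjusted p under 0.05, 1 was higher and 1 lower, against 7.11% and 9.25% of all genes tested. Tlr3, the endosomal sensor of double-stranded RNA, had 45.7, 51.0 and 40.8 CPM in Vil.Cre Maf.flox, against 39.5, 36.0 and 32.4 CPM in Maf.flox, while the kinase Tbk1 and the adaptor Traf3 had log2 fold changes of -0.24 and -0.26. Of 9 genes that restrain interferon signalling, none was called. Socs1, a feedback inhibitor of the receptor kinases, was the 1 gene higher at an unadjusted p under 0.05, against 7.11% of all genes tested. Socs1 had 10.5, 9.10 and 10.1 CPM in Vil.Cre Maf.flox, against 7.82, 7.13 and 6.83 CPM in Maf.flox, and Pias1 and Adar had log2 fold changes of -0.19 and 0.17.

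Of 10 further STAT and IRF factors tested, none was called and 2 were higher at an unadjusted p under 0.05, against 7.11% of all genes tested. Irf8, best known from myeloid cells, had 278, 249 and 241 CPM in Vil.Cre Maf.flox, against 157, 144 and 185 CPM in Maf.flox. Its libraries did not overlap between groups (log2 fold change 0.66, adjusted p = 0.0631 in edgeR, quasi-likelihood). Irf5 had a log2 fold change of 0.31. Of 35 other interferon-stimulated genes tested, 1 was called higher and 9 were higher and 2 lower at an unadjusted p under 0.05, with a median log2 fold change of 0.13, against 0.189% called higher and 7.11% and 9.25% at that p over all genes tested. The called gene was Ifi47, an interferon-gamma-induced GTPase, with 57.3, 50.3 and 58.1 CPM in Vil.Cre Maf.flox, against 29.7, 25.1 and 35.2 CPM in Maf.flox (log2 fold change 0.88, SE 0.135, adjusted p = 0.0389 by the same edgeR test). Mlkl, the executioner of necroptosis, was at 1.07 and Ifit3b at 1.52, neither called. Trim30d, named after its values were seen, had the change of largest size in the list, with 1.67, 4.29 and 2.87 CPM in Vil.Cre Maf.flox, against 29.1, 27.0 and 5.60 CPM in Maf.flox (log2 fold change -2.81, SE 0.690, adjusted p = 0.138 in the same edgeR test, no overlap).

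Markers of cells that the sort should exclude were low. The summed level of 20 leukocyte and plasma cell markers was 41.4, 46.9 and 35.9 CPM in Vil.Cre Maf.flox, against 27.6, 32.7 and 37.7 CPM in Maf.flox, with Ptprc, which encodes CD45, at 0.101 to 0.587 CPM in Vil.Cre Maf.flox and 0.285 to 2.29 CPM in Maf.flox. Of the 8 of these markers tested, 5 were above 0 (median log2 fold change 0.82) and none was called in edgeR (quasi-likelihood), and Ptprc was at -1.86. At an unadjusted p under 0.05, 2 of the 8 were higher, against 7.11% of all genes tested. The same 2 lay above the controls without overlap, against 10.1% of all genes tested. The B cell marker Ms4a1 was at 2.49, with 0.659, 0.528 and 0.471 CPM in Vil.Cre Maf.flox, against 0.126, 0.0521 and 0.0949 CPM in Maf.flox. That value rests on 13, 9 and 11 counts in Vil.Cre Maf.flox, against 3, 1 and 2 counts in Maf.flox. Another B cell marker, Cd79a, was not tested and had 2, 0 and 1 counts in Vil.Cre Maf.flox, against 2, 0 and 4 counts in Maf.flox. The myeloid marker Itgam was at 0.89, with 15.3, 11.6 and 10.8 CPM in Vil.Cre Maf.flox, against 5.72, 7.18 and 7.49 CPM in Maf.flox. Like Ptprc, the tested markers Cd68 (-0.25) and Lcp1 (-0.12) were below 0. The summed level of 9 stromal and endothelial markers was 10.2 to 13.0 CPM in Vil.Cre Maf.flox and 9.01 to 10.8 CPM in Maf.flox. That of 7 plasmacytoid dendritic cell markers was 135 to 246 CPM in Vil.Cre Maf.flox and 147 to 203 CPM in Maf.flox, of which Klk1 alone gave 115 to 225 CPM in Vil.Cre Maf.flox and 129.5 to 184 CPM in Maf.flox. Whether the shift in leukocyte markers bears on any member was not tested. In bulk samples, fewer cells of a type and less RNA per cell cannot be told apart.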

How the data were processed

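Counts and FPKM of 23390 genes in 6 libraries were used. The submitters' processing notes name GRCm38 (mm10), the aligner HISAT2 2.0.5, the counter featureCounts 1.5.0-p3, and DESeq2; strand use in counting was not given in the sources used here. Counts were deposited raw, as integers. The authors' FPKM divide each count by gene length and by a library size that is 0.953 to 1.0735 times the summed counts, and served only to compare levels between genes.

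The test was that of edgeR 4.0.16 (R 4.3.3): filterByExpr (least count 10), TMM, quasi-likelihood F test with genotype as the only term, Benjamini-Hochberg over 13740 genes. CPM values are TMM-normalised. Alternatives were DESeq2 1.42.0, limma-voom (limma 3.58.1), RLE and upper quartile scaling, other filters and thresholds, a replicate block, a term for sex and the omission of each library. The script was tested on simulated data modelled on this comparison (13740 genes): edgeR found 61% of 2-fold and 88% of 4-fold changes, and 6.9% of its calls were false, against 17.6% of the calls of DESeq2. Each gene was drawn independently in a single run, without shifts that many genes of a library share. These shares may therefore not hold for the real libraries. Replicate pairs differed far beyond counting noise.

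The members and lists were chosen with earlier results of these data known. Values per library are given for called members, the 12 members with the smallest p and members whose groups did not overlap; further members were picked after their values were seen. Of each pathway list the 3 genes with the smallest p are named, except 1 gene that is not reported here.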

Additional observations from a re-analysis of the deposited data

How the results depend on the processing

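Ifit1bl1 and Bst2, the members called in the main test, did not turn direction in any of the 14 alternative fits. Among members not called, Ifih1, Stat2, Irf9, Ifit1, Ifit3, Oas2, Oas3, Oasl2, Xaf1, Trim30a, Samd9l and Parp14 turned direction in at least 1 fit. The number of calls also depended on the fit. The main test called 75 genes (26 higher, 49 lower), with 2 members higher and 0 lower. No filter gave 365 genes (151 higher, 214 lower) and 4 members higher, with 0 members lower at an unadjusted p under 0.05. DESeq2 gave 760 genes (283 higher, 477 lower), with 6 members higher and 1 lower. By limma-voom there were 30 genes (12 higher, 18 lower) and 1 member higher. A term for sex gave 38 genes (15 higher, 23 lower) and 1 member higher, with 1 lower at an unadjusted p under 0.05. The replicate block gave 440 genes (132 higher, 308 lower) and 4 members higher, with 1 lower at an unadjusted p under 0.05. Ifit1bl1 was not among these 4. Deviations of same-numbered libraries correlated at 0.092, -0.026 and 0.269, so numbers were not taken as pairs. Vil.Cre Maf.flox replicate 2 correlated more with Maf.flox replicate 1 (0.331). An adjusted p of 0.01 left 2 genes and 0 members, and 0.1 gave 372 genes and 5 members higher. With 1 library left out in turn, 8 to 701 genes, 0 to 3 members higher and 0 to 4 lower were called, 7 to 12 members higher and 0 to 8 lower were at an unadjusted p under 0.05, and 8 to 14 members lay above and 0 to 8 below without overlap. Counts without overlap can only stay or rise when a library is left out, and no share over all genes stands beside them. Nor is a share over all genes given at an unadjusted p under 0.05 for the alternative fits, so those member counts have no background. The 701 genes (124 higher, 577 lower), the 4 lower members (Cmpk2, Ifi27, Irf7 and Oasl1), and the 8 without overlap below came without Maf.flox replicate 3. The 14 came without Maf.flox replicate 1, and 0 members were called without Vil.Cre Maf.flox replicate 1 or 3. The members' median was -0.02 when Maf.flox replicate 3 was left out and 0.32 when Maf.flox replicate 1 was; Ifit1 turned to -0.03 in the first of these fits and was 0.59 in the second, and the cause was not tested. With 17464355 to 24802525 counts a library, members near 1 CPM such as Oas2 and Trim30a rest on few counts (4 to 70), which limits what can be seen there.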
